A study of Mus musculus with 16 samples.

Results

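The choice of D gene and its pairing with the J gene were examined in the T cell receptor β (TCRβ) rearrangements of tumor-infiltrating T cells. Members were all rearrangements in which the deposited annotation named a single D gene, Trbd1 or Trbd2, which it writes as TCRBD01-01 and TCRBD02-01. They numbered 162920 of the 198953 rearrangements in the 16 samples (81.9%) and carried 611755 of 744906 templates (82.1%). Trbd1 was named in 85297 rearrangements and Trbd2 in 77623. The other 36033 had no D call. In 31791 of these the remaining bases fitted both D genes equally, and in 4242 no D bases were recognised.

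T cells were taken from subcutaneous tumors of KPC.Luc, a luciferase-expressing mouse line of pancreatic ductal adenocarcinoma, grown in female C57BL/6 mice. Each of 4 groups had 4 mice. Control mice received a scrambled peptide and isotype IgG, ANT008 mice a peptide antagonist of the receptors for vasoactive intestinal peptide with IgG, anti-PD-1 mice the checkpoint antibody with scrambled peptide, and combination mice ANT008 with anti-PD-1. Peptides were given at 10 µg every day and antibodies at 200 µg every 3 days, for 10 days in all. The labels give no age, and the study's methods describe experiments on young adult mice. The sample titles name T cells. The study's methods describe magnetic selection by CD90.2, a surface protein of mouse T cells, under its mRNA assay. For TCR sequencing its text names tumors as the material, so whether T cells were selected first is not certain. CD4+ and CD8+ T cells were read together. Samples held 11317 to 99411 templates, the starting molecules estimated by the service, in 4378 to 21531 unique rearrangements.

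The β chain of the T cell receptor is assembled in the thymus in an ordered way. A D segment is first joined to a J segment, and a V segment is then joined to the D-J product, with bases trimmed from each end and untemplated N bases added at each joint. Trbd1 lies ahead of the J1 cluster and Trbd2 lies between the J1 and J2 clusters. Trbd1 can therefore reach J genes of both clusters by deleting the DNA in between, whereas Trbd2 lies past the J1 genes and its usual partners are the J2 genes. The D bases sit at the centre of the CDR3, the third complementarity-determining region, which contacts the peptide presented to the T cell. The annotation of the mouse genome (GRCm38.p6), used here for names and order only, gave this order, and all 14 J gene names and both D gene names of the files matched it. Within the J2 cluster it lists Trbj2-6 as a pseudogene. The files name no genome build, so no coordinates are given.

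The 2 D segments are shown because the call between them rests on few bases. Each was read from rearrangements of these samples in which no D base had been trimmed, 1663 for Trbd1 and 1372 for Trbd2, which gave 1 sequence each. The capital marks the first base at which they differ, A6T, counted from 1 at the 5′ end of the segment and written with the Trbd1 base first.
Trbd1: gggacAgggggc
Trbd2: gggacTgggggggc
Trbd1 has 12 bases and Trbd2 has 14, with a longer run of G. The D bases named by the annotation were found at the stated place in all 162920 rearrangements. Every Trbd1 call held base 6. Among Trbd2 calls, 90.4% of those joined to a J2 gene held it (65253 of 72195) but only 62.3% of those joined to a J1 gene (3302 of 5304). In the rest only the length of the G run could tell them from Trbd1.

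Rearrangements are written below as D1-J1, D1-J2, D2-J1 and D2-J2 for the D gene and the J cluster. An example of each is shown as the deposited 87-base read, with the bases assigned to D in capitals. These were the productive rearrangements (in frame and without a stop codon) with at least 8 D bases that occurred in the most samples, and the more abundant of any tied.
D1-J1: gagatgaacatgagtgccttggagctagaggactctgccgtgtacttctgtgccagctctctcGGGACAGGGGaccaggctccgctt
D1-J2: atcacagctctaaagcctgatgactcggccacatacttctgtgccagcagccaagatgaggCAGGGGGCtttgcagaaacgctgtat
D2-J2: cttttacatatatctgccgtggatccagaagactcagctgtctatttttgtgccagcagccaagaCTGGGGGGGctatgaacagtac
D2-J1: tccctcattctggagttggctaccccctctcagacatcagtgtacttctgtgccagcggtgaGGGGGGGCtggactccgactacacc
The D1-J1 example joined TCRBV12-02 to Trbj1-5 with 10 D bases and no N bases, and was found in 4 samples with 2701 templates. The D1-J2 example joined TCRBV02-01 to Trbj2-3 with 8 D bases, 5 N bases at the V-D joint and 2 at the D-J joint, and was found in 4 samples with 1222 templates, as 1 of 3 that tied on samples. The D2-J2 example joined TCRBV05-01 to Trbj2-7 with 9 D bases and no N bases, and was found in 12 of 16 samples with 211 templates. The D2-J1 example joined TCRBV13-02 to Trbj1-2 with 8 D bases and 3 N bases at the D-J joint. It occurred in 1 sample with 178 templates and was 1 of 347 that tied, and its D bases do not include base 6.

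Trbd2 was paired mainly with J2 genes, and Trbd1 with genes of both clusters. Trbd2 was named in 64.2% ± 0.963 (SD, n = 16) of the J2 rearrangements with a D call and in 10.9% ± 1.09 of the J1 rearrangements. In the J2 cluster the lowest share was 61.6% (anti-PD-1 replicate 3) and the highest 65.3% (control replicate 2), with a median of 64.5%. In the J1 cluster the lowest was 9.50% (anti-PD-1 replicate 3) and the highest 13.6% (control replicate 4), with a median of 10.4%. The highest J1 value lay far below the lowest J2 value, and the within-sample difference was 53.3 ± 1.46 percentage points, in the same direction in 16 of 16 samples (exact two-sided sign-flip test over samples, p = 3.05e-05, the smallest it can give; adjusted p = 7.63e-05 over 10 within-sample comparisons). In all samples together there were 44962 D1-J1, 40258 D1-J2, 5304 D2-J1 and 72195 D2-J2 rearrangements with a D call and a resolved J gene. Trbd1 was thus spread over both clusters, with 47.4% ± 0.965 of its rearrangements in J2, whereas 7.05% ± 0.785 of Trbd2 rearrangements used a J1 gene.

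**Figure D1:**
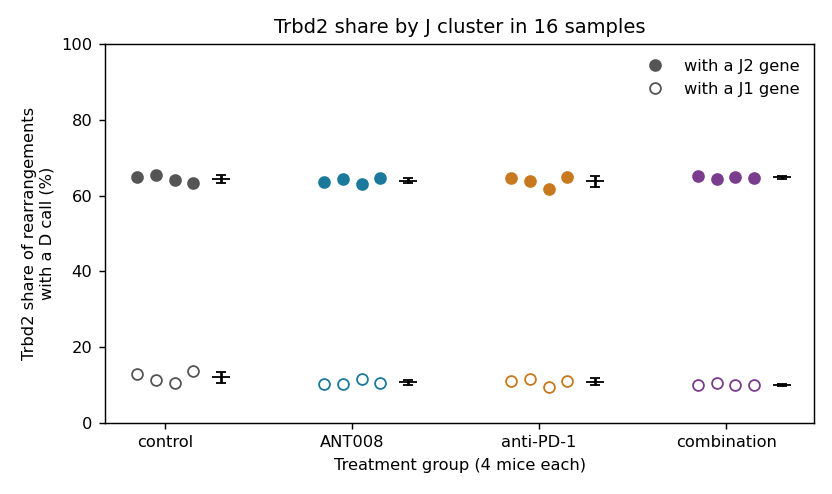
Trbd2 share of rearrangements with a D call (%, vertical axis) in each of the 4 treatment groups (horizontal axis). Each circle is 1 mouse, filled for J2 genes and open for J1 genes, and bars give the mean and SD of 4 mice; J2 values sit between 61.6% and 65.3% and J1 values between 9.50% and 13.6% in every group.

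The order held when rearrangements were weighted by their templates, but the spread between mice grew. By templates the Trbd2 share was 57.8% ± 7.37 in J2, from 46.4% to 68.0%, and 11.6% ± 5.77 in J1, from 5.80% to 25.8%. A template-weighted share follows the few largest clones of a mouse, and unique rearrangements were therefore used for the comparisons that follow.

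D2-J1 rearrangements held the shortest D stretches of the 4 classes on average. They kept 5.63 D bases on average, against 8.58 in D2-J2, 6.58 in D1-J1 and 6.66 in D1-J2 (means of 16 samples). No D2-J1 rearrangement held an untrimmed Trbd2, whereas 1.83% of D2-J2 rearrangements did. Trimming of the 5′ end of Trbd2 came to 4.92 bases in D2-J1 and 2.85 in D2-J2. Stretches under 6 bases made up 39.6% of D2-J1, 31.6% of D1-J1, 30.9% of D1-J2 and 9.68% of D2-J2. The most frequent D2-J1 stretch was GGGGGGG (701 rearrangements, 13.2%), which is within Trbd2 but longer than the G run of Trbd1. The most frequent D2-J2 stretch was CTGGGGGG (3466, 4.80%), which holds base 6. These are descriptions of what the annotation called, and how many D2-J1 calls were Trbd1 joints read as Trbd2 was not tested. When calls on fewer than 6 bases were set aside the pairing difference stayed past the threshold. That setting kept stretches such as GGGGGGG, so it does not bear on how many calls were misread.

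**Figure D2:**
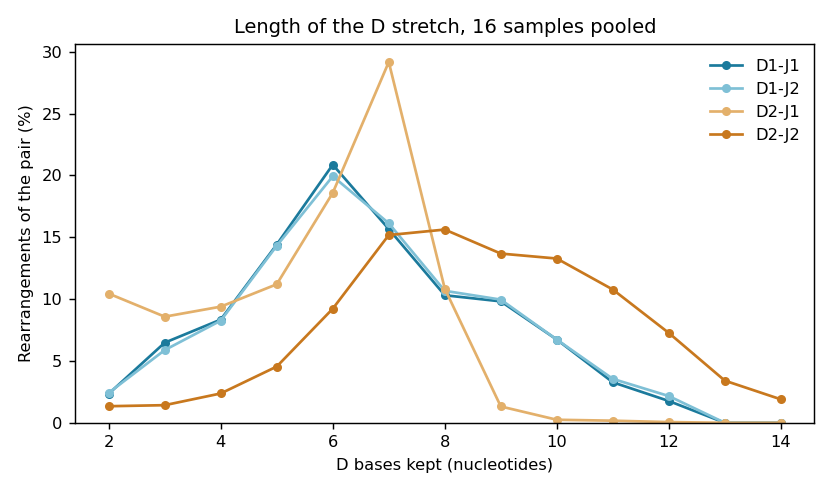
Share of the rearrangements of a D-J pair (%, vertical axis) by number of D bases kept (nucleotides, horizontal axis), 16 samples pooled, 1 line a pair. D2-J1 peaks at 7 bases with 29.2% and is nearly absent beyond 9, whereas D2-J2 extends to 14 bases.

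In 10 rearrangements the annotation recorded 2 D segments in tandem. All 10 were called Trbd2, joined a J2 gene, had 1 template each and were counted with Trbd2. A search of their sequences for Trbd1 found runs of 9 to 12 bases ahead of the Trbd2 stretch. An example, chosen after its sequence was seen, is shown in frame from combination replicate 4, with an 11-base run of Trbd1 directly followed by 11 bases of Trbd2 in capitals.
Tandem D: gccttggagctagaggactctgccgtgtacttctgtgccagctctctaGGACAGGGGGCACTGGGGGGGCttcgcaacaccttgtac

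The Trbd2 share was similar among most J2 genes. It was 66.3% ± 1.96 with Trbj2-7, 65.6% ± 1.61 with Trbj2-4, 64.4% ± 2.57 with Trbj2-1, 64.3% ± 2.93 with Trbj2-3, 63.8% ± 2.29 with Trbj2-5 and 53.4% ± 3.74 with Trbj2-2 (SD, n = 16). Trbj2-2 was lower than its neighbour in this order, Trbj2-5, by 10.4 points in 16 of 16 samples (exact sign-flip test, p = 3.05e-05, adjusted p = 0.000153 over 5 neighbours). The other 4 pairs of neighbours did not differ beyond their spread (exact sign-flip p between 0.128 and 0.912). The order was set by these same means, and genes further apart in it, such as Trbj2-7 and Trbj2-5, were not tested. The pseudogene Trbj2-6 was found with a D call in 41 rearrangements, 7 of them with Trbd2. Trbj2-7 took the largest part of both D genes, 14.2% of Trbd1 and 30.7% of Trbd2 rearrangements.

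Trbj1-7 was found with a D call in only 30 rearrangements, 1 of them with Trbd2, and is left out of what follows. Among the other 6 J1 genes the mean Trbd2 share lay between 9.01% for Trbj1-6 and 13.1% for Trbj1-2. The share with Trbj1-2 ran from 9.97% to 23.4% with a median of 11.9%. Its highest values were in control replicate 4 (82 Trbd2 rearrangements, 23.4%) and control replicate 1 (61, 20.4%). These samples also held the largest shares of near-copies, meaning rearrangements that differ by 1 base changed, lost or gained from another of the same sample with at least 20 times the templates. Near-copies made up 5.64% of rearrangements in control replicate 4, 4.08% in control replicate 1 and 2.25% in all samples together. Anti-PD-1 replicate 2 and ANT008 replicate 1 held nearly as many as control replicate 1, 4.03% and 3.86%, and their Trbd2 shares with Trbj1-2 were 11.9% and 10.1%. Without near-copies the Trbj1-2 values were 19.9% in control replicate 4 and 18.9% in control replicate 1.

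**Figure D3:**
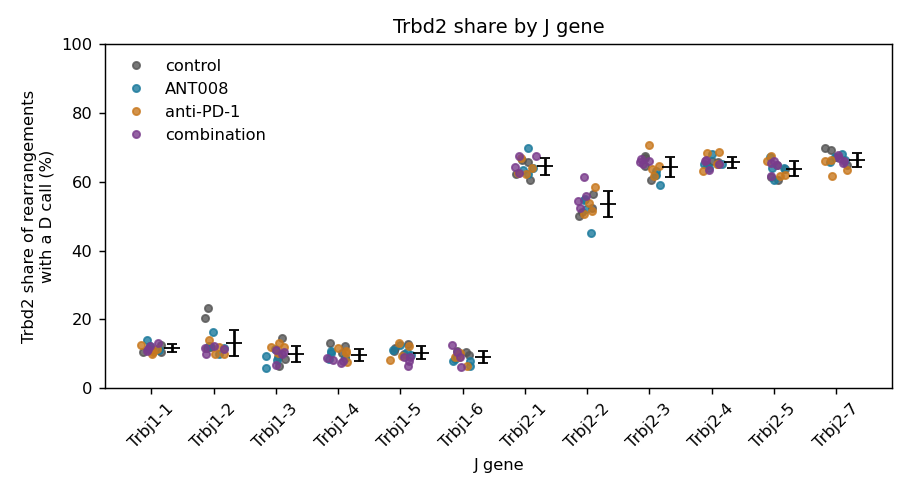
Trbd2 share of rearrangements with a D call (%, vertical axis) for 12 J genes in their order along the locus (horizontal axis). Points are the 16 samples coloured by group, bars the mean and SD; the 6 J1 genes average 9.01% to 13.1%, Trbj2-2 53.4% and the other 5 J2 genes 63.8% to 66.3%.

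V genes, which are joined after the D-J step, differed in the Trbd2 share of their J2 rearrangements with a D call. In the 20 V genes with at least 50 such rearrangements in at least 12 samples, it was highest for TCRBV31-01 (73.7% ± 3.58) and TCRBV12-01 (72.7% ± 1.88). It was lowest for TCRBV29-01 (40.7% ± 4.39) and TCRBV26-01 (43.5% ± 5.26). The highest sample of TCRBV29-01, at 47.7%, lay below the lowest of TCRBV31-01, at 68.4%. V genes were ranked by these values, and no test was made. The J2 genes were not matched between V genes, and the share without a D call was not compared between them.

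Rearrangements without a D call were more frequent with J1 genes. They made up 24.2% ± 1.13 of J1 and 15.3% ± 0.654 of J2 rearrangements, a difference of J2 minus J1 of -8.88 ± 1.19 points, below 0 in 16 of 16 samples (exact sign-flip test, p = 3.05e-05, adjusted p = 7.63e-05). Every Trbd1 call held base 6, whereas a Trbd2 call can rest on its longer G run, and most J1 calls were Trbd1. The test therefore cannot tell the J cluster from how the call is made. Over all J genes the share without a D call was 18.3% ± 0.639. Productive rearrangements lacked a D call in 18.7% and out-of-frame ones in 17.6%, a difference of 1.16 ± 1.26 points (higher in 13 of 16 samples, exact sign-flip p = 0.00146, adjusted p = 0.00183). Weighted by templates this difference was 0.523 points (exact sign-flip p = 0.761). Productive CDR3 regions without a D call averaged 39.5 nucleotides against 42.6 with one, a difference of -3.04 ± 0.188. D bases are part of the CDR3 and a call is missing where few of them remain, so the classes differ in length by how they are defined, and no test is given.

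The D call is given by CDR3 length as a description, since the bases that make the call count toward the length. In productive J2 rearrangements, those with CDR3 regions of up to 11 amino acids lacked a D call in 51.3%, and 37.7% of those with a call had Trbd2. At 14 amino acids the values were 12.6% and 63.3%. At 16 or more they were 4.60% and 82.8%. Productive D2-J2 CDR3 regions averaged 43.6 nucleotides and D1-J2 ones 41.3, a difference of 2.32 ± 0.207 in 16 of 16 samples (exact sign-flip p = 3.05e-05, adjusted p = 7.63e-05). Untrimmed Trbd2 is itself longer than Trbd1, by its 14 bases against 12. D2-J2 rearrangements of all frames kept 8.58 D bases on average and D1-J2 ones 6.66. These bases are part of the CDR3, so the test cannot tell a length difference from the D bases kept. By the number of N bases over both joints, the Trbd2 share of J2 rearrangements was 64.4% with none, 62.8% with 1 or 2 and 66.4% with 7 or more.

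**Figure D4:**
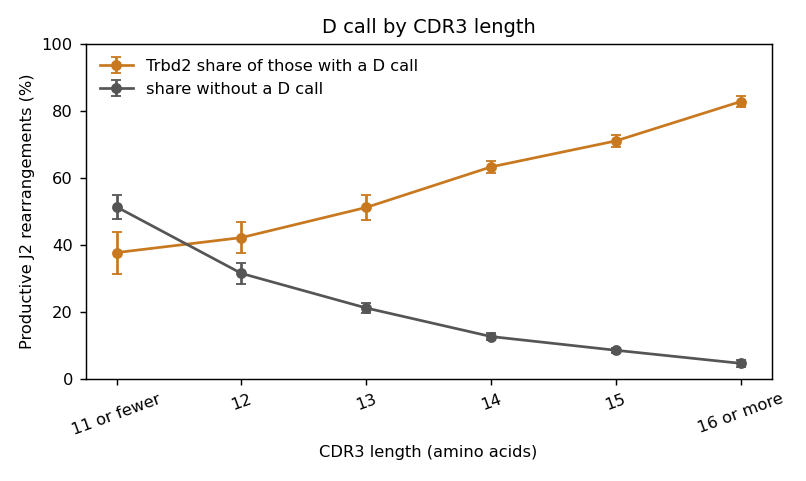
Trbd2 share of productive J2 rearrangements with a D call, and share of all productive J2 rearrangements without a D call (%, vertical axis), by CDR3 length (amino acids, horizontal axis). Points and bars are the mean and SD of 16 samples; the first rises from 37.7% to 82.8% and the second falls from 51.3% to 4.60%.

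N bases at the D-J joint, as annotated, were more numerous in D2-J2 than in D1-J2 rearrangements. The means were 1.89 ± 0.0543 and 1.75 ± 0.0407 bases, a difference of 0.145 ± 0.0756 (higher in 15 of 16 samples, exact sign-flip p = 6.10e-05, adjusted p = 0.000122). The D-J difference ran from -0.00594 in control replicate 4 to 0.287 in anti-PD-1 replicate 2. At the V-D joint D2-J2 had fewer, 1.97 ± 0.0848 against 2.06 ± 0.0800, a difference of -0.0948 ± 0.0937 (lower in 15 of 16 samples, exact sign-flip p = 0.000122, adjusted p = 0.000203). The V-D difference was not found in productive rearrangements alone, where it was 0.00784 bases (exact sign-flip p = 0.683). Near-copies were more frequent among out-of-frame rearrangements (4.19%) than productive ones (1.18%). Without near-copies the V-D difference over all rearrangements was -0.0630 (exact sign-flip p = 0.00153). Weighted by templates, the D-J difference was -0.0400 and the V-D difference 0.0119, neither past the threshold (exact sign-flip p = 0.744 and 0.917). The D call and the N count are read from the same bases of a joint. A Trbd1 call always held base 6, whereas a Trbd2 call can rest on its longer G run. These tests therefore cannot tell the joining from how the bases were assigned.

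Out-of-frame rearrangements encode no receptor, so comparing them with productive ones sets the joining outcome beside the outcome in expressed receptors. The Trbd2 share of J2 rearrangements was 64.2% ± 1.66 in productive and 64.2% ± 2.73 in out-of-frame rearrangements, with a difference of 0.0132 ± 3.89 points, above 0 in 8 of 16 samples (exact sign-flip p = 0.989). Trbd1 rearrangements used J2 genes in 48.3% when productive and 45.9% when out-of-frame, a difference of 2.35 ± 2.15 points in 14 of 16 samples (exact sign-flip p = 0.000488, adjusted p = 0.000698).

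The reading frame of the D segment, by contrast, differed with productivity for both D genes. The frame is that of the V gene, numbered by the D base at which the first whole codon starts. Frame 1 reads GGG ACA GGG in Trbd1 and GGG ACT GGG in Trbd2, frame 2 reads GGA CAG GGG and GGA CTG GGG, and frame 3 reads GAC AGG GGG and GAC TGG GGG. Frame 3 of Trbd2 encodes aspartate and tryptophan before glycine, as in the D2-J2 example above. In D2-J2 rearrangements frame 3 took 42.7% ± 1.69 of productive and 37.4% ± 1.71 of out-of-frame rearrangements, higher by 5.30 points in 16 of 16 samples (exact sign-flip p = 3.05e-05, adjusted p = 8.39e-05 over 11 comparisons added after the data were seen). Frames 1 and 2 of D2-J2 were lower in productive rearrangements, by -2.89 and -2.42 points, in 15 of 16 samples each. In D1-J1 it was frame 1 that was higher, 37.3% ± 1.87 against 30.9% ± 1.79, by 6.46 points in 16 of 16 samples (exact sign-flip p = 3.05e-05, adjusted p = 8.39e-05). In D1-J2 productive and out-of-frame rearrangements differed in all 3 frames, with frame 3 at 35.8% against 33.9%, frame 1 at 34.0% against 32.7% and frame 2 at 30.2% against 33.4% (adjusted p of the exact sign-flip tests 0.00252, 0.0240 and 0.000410). Without near-copies the D2-J2 frame 3 difference was 5.20 points and the D1-J1 frame 1 difference 6.53 points, each again in 16 of 16 samples.

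**Figure D5:**
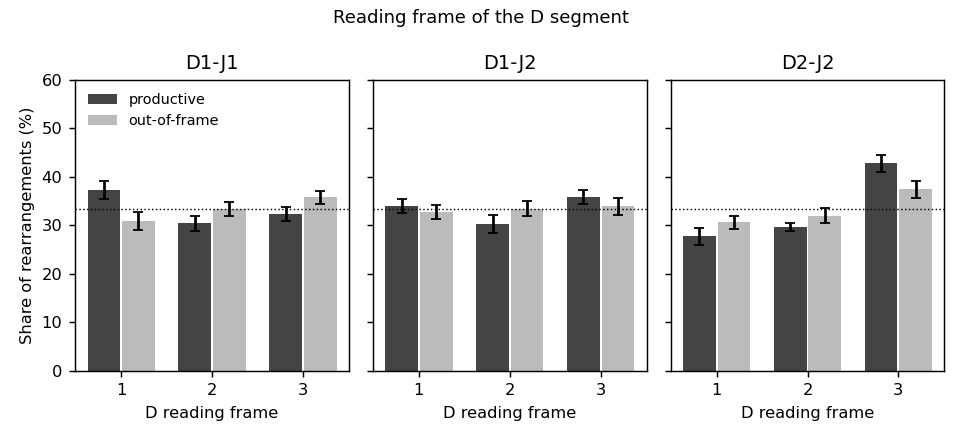
Share of rearrangements (%, vertical axis) in each D reading frame (horizontal axis) for D1-J1, D1-J2 and D2-J2, in productive (dark) and out-of-frame (light) rearrangements. Bars are means and lines the SD of 16 samples, and the dotted line marks equal use of the frames; productive D2-J2 reach 42.7% in frame 3 and productive D1-J1 37.3% in frame 1.

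By the D calls made, J2 rearrangements found in more than 1 mouse were richer in Trbd2. There were 3533 rearrangements shared by at least 2 samples. Among J2 rearrangements with a D call, Trbd2 made up 69.5% ± 3.21 of the shared and 64.0% ± 1.03 of those found in 1 sample, a difference of 5.57 points in 14 of 16 samples (exact sign-flip p = 0.000122, adjusted p = 0.000168). Shared rearrangements also lacked a D call more often, 22.9% against 18.1%, in 16 of 16 samples (exact sign-flip p = 3.05e-05, adjusted p = 8.39e-05). They carried fewer N bases, 1.54 against 3.89 over both joints. A Trbd1 call always held base 6 and a Trbd2 call need not, so calls lost can change the Trbd2 share of those left. The test of that share cannot tell this from the D gene joined. Any pair of samples had at most 1.14% of the rearrangements of the smaller one in common.

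D2-J2 clones were smaller than D1-J2 clones on average. Mean templates per productive rearrangement, on the log2 scale, were 1.99 ± 0.569 for D2-J2 and 2.41 ± 0.641 for D1-J2, a difference of -0.42 ± 0.585 with 12 of 16 samples lower (exact sign-flip p = 0.0131, adjusted p = 0.0146). Over rearrangements found in 1 sample only the difference was -0.20 (exact sign-flip p = 0.0858). Of the 160 rearrangements that were among the 10 most frequent productive ones of a sample, 46 (28.8%) were D2-J2 and 45 (28.1%) D1-J2. In all productive rearrangements these classes made up 37.0% and 20.1%. The rest of the 160 were 26 D1-J1, 4 D2-J1 and 39 without a D call, given as counts with no test.

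The treatments were then compared with control. The Trbd2 share of J2 rearrangements was 64.4% ± 0.928 (SD, n = 4) in control. It was 63.9% ± 0.719 with ANT008, 63.7% ± 1.49 in anti-PD-1 mice and 64.8% ± 0.314 after the combination. The J2 share of Trbd1 rearrangements was 47.2% ± 0.541 in control, then 47.6% ± 1.33, 47.6% ± 0.678 and 47.1% ± 1.36 in that order of treatments. The share without a D call was 18.1% ± 0.982 in control, then 18.6% ± 0.708, 18.3% ± 0.550 and 18.1% ± 0.293. The Trbd2 share of J1 rearrangements, given with no test, was 12.8%, 11.2%, 10.4% and 13.6% in control replicates 1 to 4, of which replicates 1 and 4 held the most near-copies. It was 10.6% ± 0.591 with ANT008, 10.8% ± 0.899 in anti-PD-1 mice and 10.1% ± 0.283 after the combination, and without near-copies control replicates 1 and 4 each stood at 12.5%. The ranges of all 9 pairs of groups overlapped, and no difference passed the threshold (exact permutation form of Dunnett's comparison over 10510500 assignments, p from 0.688 to 1.00, and adjusted p = 1.00 for each of the 9). The largest difference of the 9 was -0.653 points (SE 0.680), the Trbd2 share with anti-PD-1. The within-sample pairing difference, J2 minus J1, was also compared with control, among 30 such comparisons. It was higher by 2.35 points in combination mice (SE 0.913, exact permutation p = 0.0551, adjusted p = 0.413). With ANT008 it was higher by 0.912 and with anti-PD-1 by 0.540 (exact permutation p = 0.652 and 0.894). A p that misses the threshold does not show that the groups were alike. Weighted by templates, the share without a D call was 22.1% ± 3.14 with ANT008 and 15.2% ± 2.57 in control, with a difference of 6.90 points (SE 2.52, exact permutation p = 0.0495, not adjusted for the 9 comparisons).

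Each combination of D call and J gene was also tested with the edgeR quasi-likelihood test. Of 36 combinations tested, 0 passed an adjusted p of 0.05 in ANT008 mice (0%), 0 in anti-PD-1 mice (0%) and 1 in combination mice (2.78%). Unadjusted p-values under 0.05 were found for 1, 2 and 3 combinations, and DESeq2 found 2, 2 and 3 at that level and 0 after adjustment in each comparison. The 3 found by edgeR in combination mice were all Trbd2 with a J1 gene. Of all D2-J1 calls, 37.7% lacked base 6, and how many were Trbd1 joints read as Trbd2 was not tested. Of the 6 pairs of Trbd2 with a J1 gene tested, 5 were lower than control with ANT008, 4 with anti-PD-1 and 5 in combination mice. Over all 36 combinations, 19, 20 and 17 were lower in that order. The median log2 fold change of the 6 was -0.280, -0.110 and -0.289, and they were not tested as a set. The combination that passed was Trbd2 with Trbj1-4. It made up 0.792%, 0.465%, 0.577% and 0.748% of rearrangements in control replicates 1 to 4 (48 to 93 rearrangements). In combination replicates 1 to 4 it made up 0.415%, 0.464%, 0.397% and 0.412% (49 to 85). The highest combination sample lay just under the lowest control sample, and the fit gave a log2 fold change of -0.54 (edgeR adjusted p = 0.0472). The call was lost without near-copies (log2 fold change -0.46, edgeR adjusted p = 0.116) and without control replicate 1 (edgeR adjusted p = 0.223). It was also lost with any 1 of 9 other samples left out, namely control replicate 4, ANT008 replicates 2 and 4, anti-PD-1 replicates 1, 2 and 4, and combination replicates 1, 3 and 4. The log2 fold change was -0.44 without control replicate 1, -0.46 without control replicate 4, and between -0.54 and -0.51 without any 1 of the other 8. With ANT008 the smallest p belonged to Trbj2-5 without a D call, at 2.03% ± 0.334 against 1.69% ± 0.0946 in control (edgeR adjusted p = 0.273). With anti-PD-1 it belonged to Trbd2 with Trbj1-2, at 0.488% to 0.617% against 0.508% to 1.28% in control (log2 fold change -0.53, edgeR adjusted p = 0.185).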

How the data were processed

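TCRβ CDR3 sequencing was done by a commercial service. The deposited files hold 1 entry per unique rearrangement, with the estimated templates as whole counts and with its V, D and J calls, trimming and N bases. The sources used here disagree on whether DNA or RNA was extracted, so a template may be a transcript and not a cell. Aligner and build are not given in the sources used here. Each sample is 1 mouse.

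Members, lists and tests were chosen with earlier results of these data known. Named genes were both D genes, every J gene, any D-J combination past the threshold or with the smallest p, and the 2 highest and 2 lowest V genes. Within-sample differences were tested with exact two-sided sign-flip tests over 16 samples (65536 sign patterns), treatments with an exact permutation form of Dunnett's comparison, and D-J combinations with edgeR on counts of unique rearrangements (a count of at least 10 in at least 4 samples, library size fixed at those with a resolved J gene). p-values were adjusted by Benjamini-Hochberg. Scripts were tested on simulated data. The J gene was unresolved in 244 rearrangements, which entered no pairing. Alternatives were template weighting, frame classes, a D stretch of at least 6 bases, rearrangements found in 1 sample, equal depth over 20 draws, other normalization and filters, and each sample left out. Tools were Python 3.11.15, numpy 2.4.6, pandas 2.3.3, scipy 1.17.1, numba 0.67.0, matplotlib 3.10.9, R 4.3.3, edgeR 4.0.16 and DESeq2 1.42.0.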

Additional observations from a re-analysis of the deposited data

Results flagged for a closer look

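The difference in N bases at the D-J joint between D2-J2 and D1-J2 rearrangements was itself different between groups. It averaged 0.0481 ± 0.0512 bases in control, 0.175 ± 0.0360 in ANT008 mice, 0.208 ± 0.0725 in anti-PD-1 mice and 0.149 ± 0.0204 in combination mice (SD, n = 4). Control values ran from -0.00594 to 0.106, and all 12 treated samples lay above them, from 0.122 to 0.287. The difference between anti-PD-1 and control was 0.160 bases (SE 0.0346, exact permutation form of Dunnett's comparison, p = 0.000914, adjusted p = 0.0274 over 30 such comparisons, the only 1 under 0.05). ANT008 minus control was 0.127 (exact permutation p = 0.00662, adjusted p = 0.0993) and combination minus control 0.101 (exact permutation p = 0.0307, adjusted p = 0.307). In every treated group the mean of D2-J2 lay above control and that of D1-J2 below it. D2-J2 held 1.85 ± 0.0591 bases in control mice, 1.92 ± 0.0354 after ANT008, 1.92 ± 0.0674 after anti-PD-1 and 1.89 ± 0.0298 after both. D1-J2 held 1.80 ± 0.0203, 1.74 ± 0.0268, 1.71 ± 0.0311 and 1.74 ± 0.0306 bases in the same order of groups. These means are given with no test.

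Near-copies were most frequent in control replicates 4 and 1. Without near-copies the anti-PD-1 difference was 0.102 bases (exact permutation p = 0.0297, not adjusted), and in productive rearrangements alone it was 0.124 (exact permutation p = 0.0711). Within each J gene it was 0.104 (exact permutation p = 0.0381), and there ANT008 minus control was 0.0747 (exact permutation p = 0.167) and combination minus control 0.0464 (exact permutation p = 0.502). Leaving out each sample in turn gave 0.133 to 0.184 for anti-PD-1. These comparisons were added after the data were seen. No sample stood apart from the other 3 of its group in the 52 sets of 4 values checked, where chance marks about 1 in 20.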

How the results depend on the processing

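The D-J pairing, the lower Trbd2 share of Trbj2-2, the CDR3 length difference between D2-J2 and D1-J2, the J1 excess without a D call and the J2 share of Trbd1 by frame kept their direction and stayed past the threshold under every alternative run for them. Of these, the CDR3 length difference and the J1 excess depend in part on the D bases that make the call. In all, 471 of 532 alternative values of the main comparisons were unchanged. For the counts of D-J combinations this means an equal count, and for the others the same direction and side of the threshold. For values that changed, the cause was not tested.

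Weighted by templates, the values turned for the combination's Trbd2 share of J2 (-0.187 points), its share without a D call (4.60), the Trbd2 share by frame (-2.32), V-D N bases (0.0119) and D-J N bases (-0.0400), the share without a D call passed the threshold for ANT008 (6.90), and its difference by frame no longer did (0.523). In productive rearrangements the V-D difference was 0.00784. In out-of-frame rearrangements the Trbd2 share of J2 turned to 0.175 (ANT008) and -1.80 (combination), the J2 share of Trbd1 to 0.223 (combination), and the share without a D call to -0.167 (ANT008) and 0.227 (combination). With at least 6 D bases, 0.132 (Trbd2 share, ANT008) and 0.113 (J2 share of Trbd1, combination) turned. In rearrangements of 1 sample, 0.0973 (J2 share of Trbd1, combination) and 0.140 (share without a D call, combination) turned, and clone size missed the threshold at -0.20. At equal depth, 0.496 (Trbd2 share, ANT008), -0.289 (J2 share of Trbd1, ANT008) and -0.370 (share without a D call, anti-PD-1) turned.

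The count of D-J combinations past an adjusted p of 0.05 went from 1 to 0 for combination mice by templates, in productive rearrangements, with at least 6 D bases, without near-copies and with DESeq2. Under these alternatives the log2 fold change of Trbd2 with Trbj1-4 was -0.95, -0.49, -0.71, -0.46 and -0.56 in that order, against -0.54. By templates it was 1 for ANT008 and 2 for anti-PD-1, and with no filter on low counts it was 1 for anti-PD-1 and 2 for the combination. With each sample left out in turn the counts ran from 0 to 1 for ANT008 and 0 to 2 for each of the others.

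Leaving out each sample in turn, these values crossed 0, none past the threshold: the Trbd2 share of J2 for anti-PD-1 (-1.07 to 0.0471), the J2 share of Trbd1 for ANT008 (-0.129 to 0.780) and the combination (-0.456 to 0.541), the share without a D call for anti-PD-1 (-0.0228 to 0.686) and the combination (-0.245 to 0.464), and the Trbd2 share by frame (-0.468 to 0.391).

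With the replicate block the Trbd2 share of J2 differed from control by -0.439 points for ANT008, -0.653 for anti-PD-1 and 0.437 for the combination, and the counts of combinations were 0, 0 and 1, so the block changed no call. Same-numbered mice showed no clear common deviation. Of 24 pairs 7 had a correlation over 0.1, with a median of -0.109, and 5 of 16 samples correlated best with their own number. The labels give only the number, and these values cannot tell whether same-numbered mice shared any handling.

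Precision is limited by 4 mice a group and, in samples of few rearrangements, by counting error, most of all for Trbd2 with single J1 genes. Amplified reads are not independent molecules. The alternatives with at least 6 D bases in the edgeR test and without near-copies, and those of the J2 order, were chosen after the data were seen.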
